A study of Mus musculus with 18 samples.

Results

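The C-type lectin receptors described here are the products of 10 genes, Clec4e, Clec4d, Clec4n, Clec7a, Clec4a1, Clec4a2, Clec4a3, Clec12a, Clec5a and Clec9a. They were chosen by symbol, and all 10 were found among the 24421 gene symbols of the count files. Of the 10, 9 had enough counts to be tested among 10550 genes, and Clec9a did not. RNA was sequenced in bulk from synovial macrophages of adult WT C57BL/6 mice, sorted into LYVE1+CX3CR1+, MHCII+CD11c- and MHCII+CD11c+ subsets, to ask how resting subsets differ and how each responds to immune complexes. For each subset, 3 libraries came from untreated mice (labelled Healthy) and 3 from mice taken 8 h after i.v. injection of preformed immune complexes of ovalbumin and rabbit anti-ovalbumin antibodies (IC), which gave 18 libraries in 6 groups. Each library held cells pooled from 3 mice, so the spread between libraries is a spread between pools and not between single animals. Library totals ranged from 245903 to 2172358 counts, and the smallest were replicates 2 (245903 counts) and 1 (381217 counts) of MHCII+CD11c- with IC. A single count was worth between 0.480 and 3.77 CPM (counts scaled to a common library total) across the libraries, after scaling by the trimmed mean of M-values (TMM), and levels below are TMM-scaled CPM.

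C-type lectin receptors are membrane proteins with a carbohydrate-recognition-like fold, and in myeloid cells they sense fungi, mycobacteria, crystals and debris of dead cells. Activating members signal through the kinase SYK, either by a tyrosine motif in their own tail, as Dectin-1 (Clec7a) does, or through a partner adaptor: FcRγ (Fcer1g) for Mincle (Clec4e), MCL (Clec4d) and Dectin-2 (Clec4n), and DAP12 (Tyrobp) for MDL-1 (Clec5a). SYK then engages the CARD9, BCL10 and MALT1 complex, which activates NF-kB. Inhibitory members such as DCIR (Clec4a2) and MICL (Clec12a) carry a tail motif that recruits the phosphatases SHP-1 and SHP-2. FcRγ is also the signalling chain of activating Fc receptors for IgG, the receptors that bind immune complexes.

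All 10 genes lie on chromosome 6 (coordinates are RefSeq's on GRCm38.p6, counted from 1). The Dectin-2 cluster holds Clec4a1 (122921848 to 122934619), Clec4a3 (122952515 to 122969878), Clec4a2 (123122690 to 123143999), Clec4n (123229843 to 123247024), Clec4d (123262107 to 123275268) and Clec4e (123281789 to 123289871). Within it, Clec4d and Clec4e are neighbours 6520 bases apart on opposite strands. The Dectin-1 cluster lies 6.06 Mb further on and holds Clec12a (129349783 to 129365303), Clec9a (129408862 to 129424764) and Clec7a (129461591 to 129472785). Clec5a (40574898 to 40585805) stands alone, 82.3 Mb before the Dectin-2 cluster. Clec4e, Clec7a and Clec5a are on the minus strand and the others on the plus strand.

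RefSeq promoter windows, which run from 250 bases before to 50 bases after an annotated start, were at hand for 9 of the 10 genes (not for Clec4n). Those of Clec4e, Clec4d and Clec5a, which were higher with IC over the 3 subsets, and of Clec7a, which was lower, are shown 5′ to 3′ in the sense of the gene, on GRCm38.p6, at chr6:123289822-123290121, minus strand; chr6:123261857-123262156, plus strand; chr6:40585756-40586055, minus strand; and chr6:129472730-129473029, minus strand. Capitals mark matches, on either strand, to the letters of 5 motifs of myeloid and inflammatory factors: GAGGAA (PU.1 core), TTGCNNAA (C/EBP), TGANTCA (AP-1), GGGNNTNCC (NF-kB) and the interferon-stimulated response element.
Clec4e: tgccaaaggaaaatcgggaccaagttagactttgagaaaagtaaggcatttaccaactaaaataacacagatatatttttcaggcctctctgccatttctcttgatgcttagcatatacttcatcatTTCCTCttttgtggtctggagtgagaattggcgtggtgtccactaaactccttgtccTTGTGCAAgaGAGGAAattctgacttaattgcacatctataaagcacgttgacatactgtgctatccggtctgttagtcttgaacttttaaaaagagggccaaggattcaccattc
Clec4d: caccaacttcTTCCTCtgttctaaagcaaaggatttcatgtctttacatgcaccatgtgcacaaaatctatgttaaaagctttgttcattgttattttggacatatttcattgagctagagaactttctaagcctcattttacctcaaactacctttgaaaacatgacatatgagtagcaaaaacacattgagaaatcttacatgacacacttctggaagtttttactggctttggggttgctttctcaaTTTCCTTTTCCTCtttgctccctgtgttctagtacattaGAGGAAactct
Clec5a: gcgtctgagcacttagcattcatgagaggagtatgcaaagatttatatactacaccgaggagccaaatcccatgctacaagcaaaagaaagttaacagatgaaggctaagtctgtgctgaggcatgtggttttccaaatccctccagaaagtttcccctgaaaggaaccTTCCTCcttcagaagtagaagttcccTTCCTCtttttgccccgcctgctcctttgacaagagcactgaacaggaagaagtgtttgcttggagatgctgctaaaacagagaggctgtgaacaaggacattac
Clec7a: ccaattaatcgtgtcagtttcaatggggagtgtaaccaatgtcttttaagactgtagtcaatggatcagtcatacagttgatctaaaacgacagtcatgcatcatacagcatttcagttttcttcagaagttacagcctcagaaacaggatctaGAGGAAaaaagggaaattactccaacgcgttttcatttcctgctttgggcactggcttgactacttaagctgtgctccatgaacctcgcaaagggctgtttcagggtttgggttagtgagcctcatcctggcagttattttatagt

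With the start as position 0, the Clec4e window held the PU.1 core at -123 to -118 and at -56 to -51, and the C/EBP letters at -66 to -59, just before the second of these. The Clec4d window held the PU.1 core 3 times, at -240 to -235, 7 to 12 and 39 to 44, and the interferon-stimulated response element at 0 to 9, which overlaps the second PU.1 core. In Clec5a the PU.1 core was found at -81 to -76 and -55 to -50, and in Clec7a at -96 to -91. The PU.1 core was present in windows of 7 of the 9 genes, the exceptions being Clec4a2 and Clec9a, against 28.3% of all 32851 RefSeq windows. The C/EBP letters were in 2 of the 9 genes (Clec4e and Clec12a) and in 10.8% of all windows, the AP-1 letters in 2 (Clec4a2 and Clec12a) and in 7.81%, the NF-kB letters in 1 (Clec4a3) and in 16.4%, and the interferon-stimulated response element in 1 (Clec4d) and in 3.44%. These are matches of letters only. Clec7a and Clec4a3 had 2 overlapping windows each, which were counted per gene.

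The sort was checked by the transcripts of its own gate. Lyve1 was at 2171 to 2563 CPM in untreated LYVE1+CX3CR1+ libraries, 702 to 882 in MHCII+CD11c- and 329 to 439 in MHCII+CD11c+. Itgax, which encodes CD11c, was at 240.0 to 304 CPM in untreated MHCII+CD11c+ and at most 13.3 in the other untreated libraries. The MHCII gene H2-Ab1 was at 20.1 to 20.5 CPM in untreated LYVE1+CX3CR1+ against 4548 to 7825 in the untreated MHCII+ subsets. Transcripts of the gate moved with IC: Lyve1 was at 1841, 516 and 2290 CPM in MHCII+CD11c- replicates 1 to 3, which reaches the untreated LYVE1+CX3CR1+ range, and at 1001 to 1232 in MHCII+CD11c+ and 3172 to 3555 in LYVE1+CX3CR1+. With IC Itgax was at 31.0 to 70.6 CPM in MHCII+CD11c- and 273 to 383 in MHCII+CD11c+, and H2-Ab1 at 22.0 to 44.3 in LYVE1+CX3CR1+, 2670 to 3088 in MHCII+CD11c- and 5525 to 6952 in MHCII+CD11c+. All 10 macrophage markers were detected in every group, with summed levels of 14169 to 14805 CPM in untreated LYVE1+CX3CR1+, 9967 to 11601 in MHCII+CD11c- and 6210 to 6614 in MHCII+CD11c+. Transcripts of other cells were present in the MHCII+ libraries: the 5 B cell markers in the files summed to 204 to 354 CPM in MHCII+CD11c-, 62.5 to 94.5 in MHCII+CD11c+ and 0 to 2.11 in LYVE1+CX3CR1+. The 14 neutrophil markers in the files are given with the results they move with.

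Levels of different receptors were compared per kb of exon, because longer transcripts give more reads. On this scale Clec7a was the most abundant of the 10 in untreated cells of each subset, at 41.6 ± 24.8 CPM per kb in LYVE1+CX3CR1+, 78.3 ± 13.7 in MHCII+CD11c- and 102 ± 47.0 in MHCII+CD11c+ (SD, n = 3). In LYVE1+CX3CR1+ cells Clec5a, at 40.4 ± 2.16 CPM per kb, was next and did not differ from Clec7a beyond their spread. These 2 genes made up 28.7% and 27.8% of the summed level per kb of the 10 receptors there. In the MHCII+ subsets Clec4a1 and Clec4a3 came next instead, at 73.3 ± 10.7 and 60.2 ± 11.6 CPM per kb in MHCII+CD11c- and at 70.5 ± 3.69 and 53.1 ± 11.5 in MHCII+CD11c+. Clec4a1 overlapped Clec7a in both, whereas the libraries of Clec4a3, at 47.0 to 68.3, only just reached those of Clec7a, at 68.2 to 93.9, in MHCII+CD11c- and lay below them in MHCII+CD11c+, at 42.5 to 65.3 against 68.0 to 156. Clec5a was in sixth and seventh place in these subsets, with 6.18% and 2.31% of the sum. Clec4e, Clec4d and Clec4n were low in untreated cells of every subset, from 1.28 ± 0.418 (Clec4e in LYVE1+CX3CR1+) to 7.59 ± 1.13 CPM per kb (Clec4n in MHCII+CD11c+), and Clec9a was last.

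With IC the order changed in the MHCII+ subsets. Clec4a1 stood first there, at 68.1 ± 15.3 CPM per kb in MHCII+CD11c- and 77.0 ± 8.00 in MHCII+CD11c+, with Clec4a3 next at 43.2 ± 7.32 and 72.1 ± 26.6, and then Clec7a at 39.2 ± 7.24 and 52.5 ± 3.62, each overlapping the next in its libraries. Clec4e moved from 3.97 ± 0.783 to 15.8 ± 3.23 CPM per kb in MHCII+CD11c+ and from 5.499 ± 1.91 to 14.5 ± 5.47 in MHCII+CD11c-. Its share of the sum went from 1.33% to 5.13% and from 1.92% to 5.72%. In LYVE1+CX3CR1+ cells Clec7a (39.9 ± 4.36) and Clec5a (39.3 ± 2.65) remained the leading pair and did not differ beyond their spread.

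**Figure D1:**
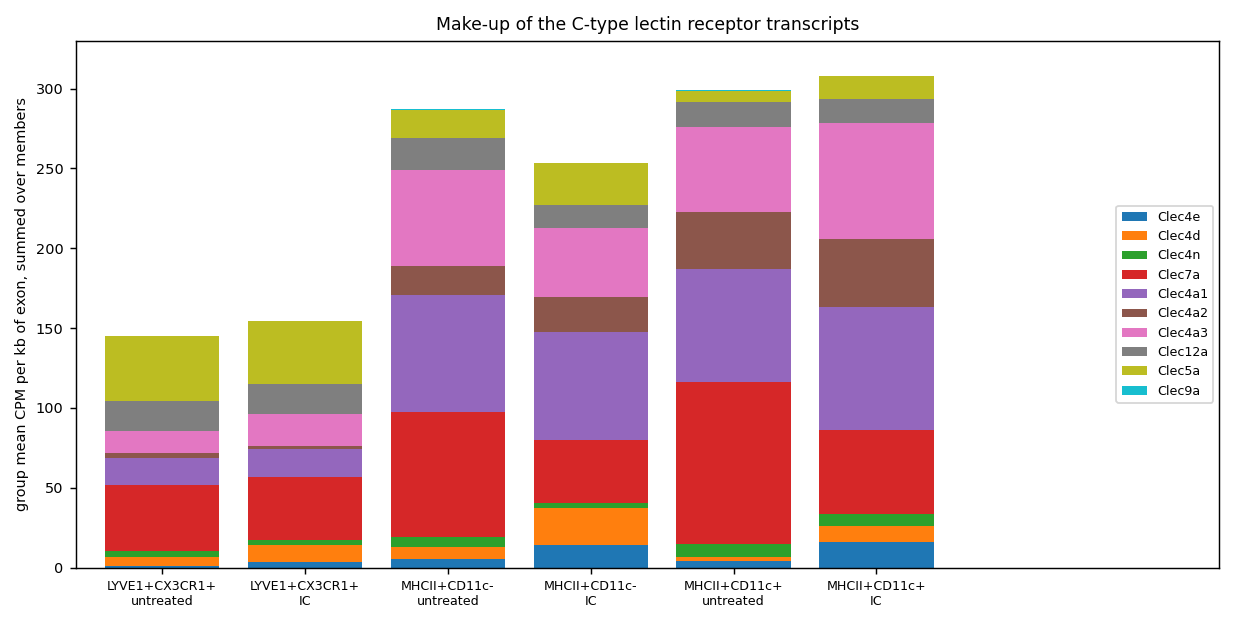
Stacked bars of the group mean level of each of the 10 receptors in CPM per kb of exon, for the 6 groups of 3 libraries. Clec5a takes 27.8% of the bar of untreated LYVE1+CX3CR1+ and 2.31% of that of untreated MHCII+CD11c+, where Clec7a, Clec4a1 and Clec4a3 are the tallest parts.

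Between untreated LYVE1+CX3CR1+ and MHCII+CD11c- macrophages, 6 of the 9 tested receptors passed the threshold of an adjusted p of 0.05 in edgeR's quasi-likelihood test, 1 higher and 5 lower in LYVE1+CX3CR1+, where 11.4% of all tested genes passed. Against MHCII+CD11c+ it was the same 6 in the same directions, where 21.8% of all genes passed. Clec5a was higher in LYVE1+CX3CR1+, and Clec4a1, Clec4a2, Clec4a3, Clec4e and Clec7a were lower. The median log2 fold change of the 9 was -0.92 and -1.30, beside -0.02 and -0.02 over all tested genes. The comparisons share the LYVE1+CX3CR1+ libraries. In bulk libraries, fewer cells of a type and less RNA per cell cannot be told apart.

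**Figure D2:**
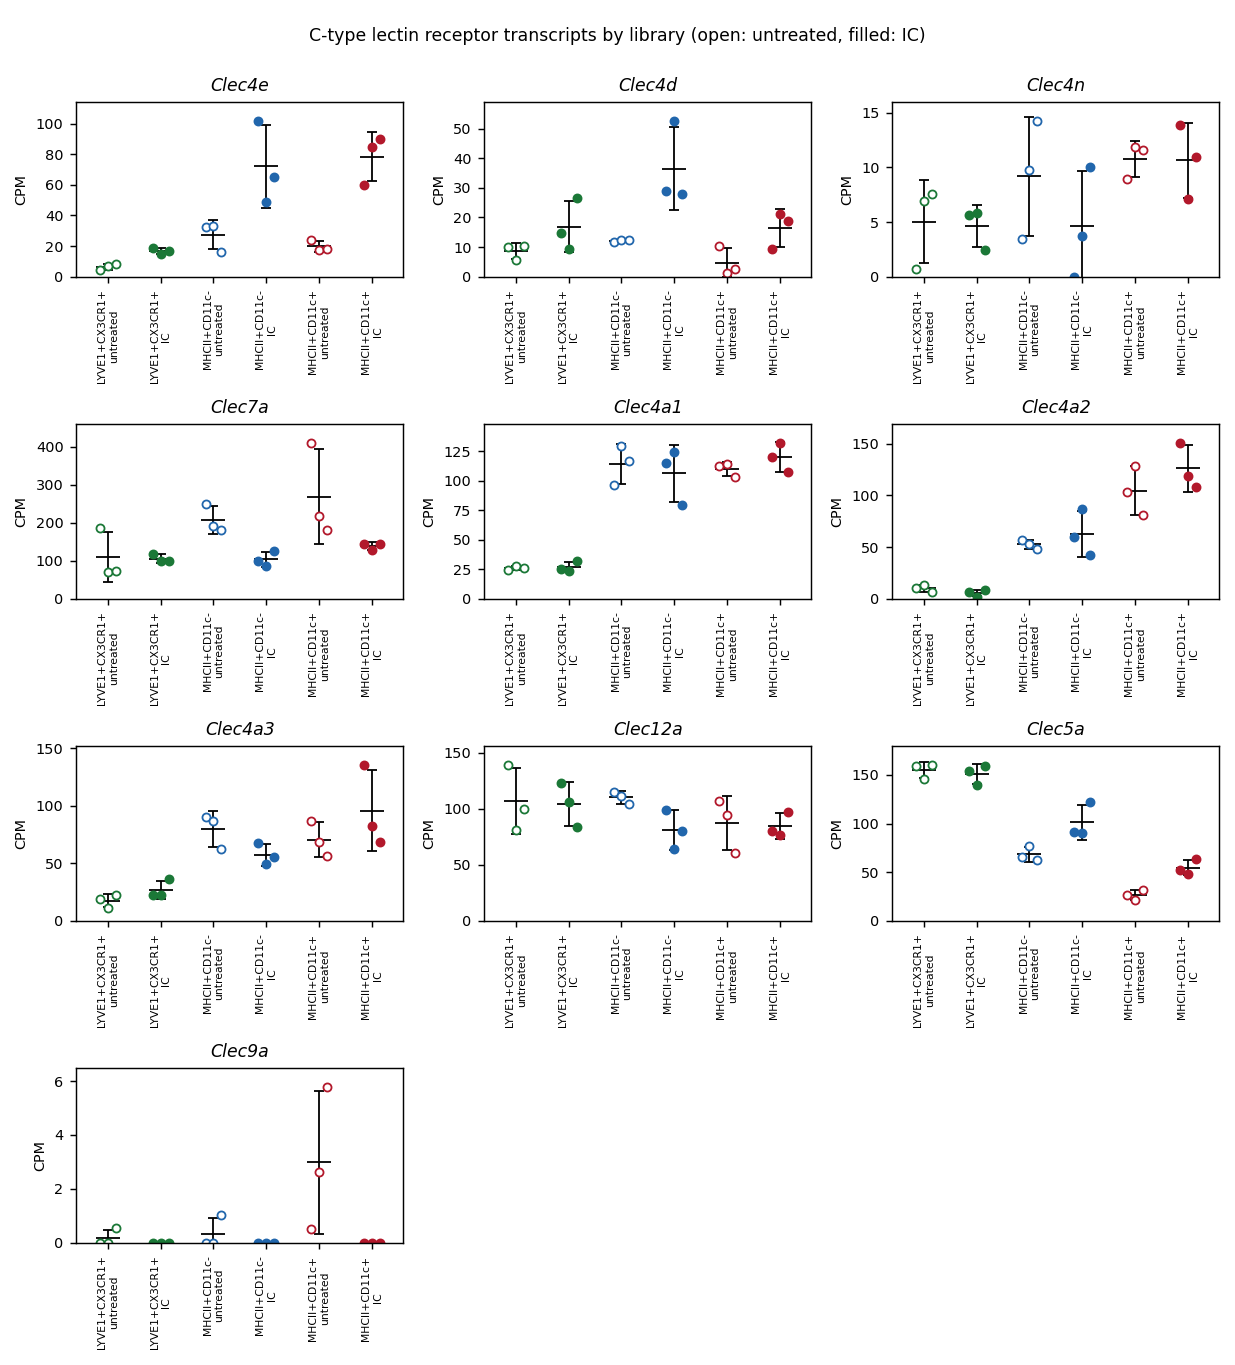
CPM of each receptor in each of the 18 libraries (points) with the group mean and SD (bars, cut at 0), for untreated (open) and IC (filled) libraries of the 3 subsets. Clec4a1, Clec4a2 and Clec4a3 are lowest in all LYVE1+CX3CR1+ libraries, Clec5a is highest there, and every IC library exceeds every untreated library of its subset for Clec4e.

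Clec5a encodes MDL-1, a DAP12-coupled activating receptor that also binds dengue virus. It was at 159, 145 and 160.5 CPM in the untreated LYVE1+CX3CR1+ replicates 1 to 3, at 65.1, 77.0 and 62.3 in MHCII+CD11c-, and at 26.3, 21.7 and 31.8 in MHCII+CD11c+. The groups stood in 3 separate steps without overlap. The log2 fold change was 1.19 ± 0.20 (SE) over MHCII+CD11c- (adjusted p = 0.000155) and 2.53 ± 0.20 over MHCII+CD11c+ (adjusted p = 6.09e-10), and both calls held in all 14 alternative fits. Clec5a was the receptor that also separated the MHCII+ subsets in untreated cells, lower in MHCII+CD11c+ by a log2 fold change of -1.34 ± 0.21 (adjusted p = 0.000414). In that comparison 1 of the 9 receptors passed, beside 3.49% of all genes.

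Clec4a1, Clec4a2 and Clec4a3 belong to the DCIR group of the Dectin-2 cluster, in which DCIR (Clec4a2) is an inhibitory receptor. Clec4a1 was at 24.3, 27.6 and 26.4 CPM in untreated LYVE1+CX3CR1+, at 96.5, 129.6 and 116 in MHCII+CD11c- and at 112, 114 and 103 in MHCII+CD11c+. Clec4a3 was at 18.9, 11.3 and 22.6 CPM in LYVE1+CX3CR1+, at 90.7, 86.8 and 62.3 in MHCII+CD11c- and at 86.7, 68.4 and 56.4 in MHCII+CD11c+. For both genes the LYVE1+CX3CR1+ libraries were low and did not overlap the others, whereas the MHCII+ subsets overlapped each other. Clec4a1 had log2 fold changes of -2.12 ± 0.22 and -2.07 ± 0.21 in LYVE1+CX3CR1+ against MHCII+CD11c- and MHCII+CD11c+ (adjusted p = 1.2e-07 and 4.45e-08), and Clec4a3 of -2.17 ± 0.31 and -1.99 ± 0.31 (adjusted p = 2.95e-05 and 1.95e-05).

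Clec4a2 differed in that all 3 subsets were apart. It was at 10.8, 13.2 and 6.46 CPM in untreated LYVE1+CX3CR1+, at 57.0, 52.6 and 48.0 in MHCII+CD11c-, and at 103, 129 and 81.5 in MHCII+CD11c+, with no overlap. LYVE1+CX3CR1+ was lower by a log2 fold change of -2.38 ± 0.35 against MHCII+CD11c- (adjusted p = 3.26e-05) and -3.37 ± 0.33 against MHCII+CD11c+ (adjusted p = 2.05e-08). Between the MHCII+ subsets it was 0.99 ± 0.29 (adjusted p = 0.0577), which did not pass in edgeR's test and passed in 4 of 13 alternatives (adjusted p from 0.00814, with 1 surrogate variable). Of the 50-base words of Clec4a2 transcripts, 6.69% also occur in other genes, among them its neighbours Clec4a4 and Clec4b1, so a part of its counts may belong to these. Clec4a4 itself had at most 4 counts in any library. Clec4b1, whose levels are given below, followed the same order of untreated subsets as Clec4a2. Its part in the Clec4a2 counts was not tested. Clec4a1 and Clec4a3 shared no such word with another gene.

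Clec4e and Clec7a were also lower in untreated LYVE1+CX3CR1+ cells. Clec4e encodes Mincle, the receptor for mycobacterial cord factor. It was at 4.04, 6.90 and 8.08 CPM in LYVE1+CX3CR1+, at 32.6, 33.0 and 16.3 in MHCII+CD11c- and at 24.2, 17.1 and 17.8 in MHCII+CD11c+, so that LYVE1+CX3CR1+ lay apart from the others, which overlapped. LYVE1+CX3CR1+ was lower by a log2 fold change of -2.06 ± 0.38 against MHCII+CD11c- (adjusted p = 0.000588) and -1.61 ± 0.37 against MHCII+CD11c+ (adjusted p = 0.00186), and passed in all 13 alternatives of each.

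Clec7a encodes Dectin-1, the receptor for fungal beta-glucan. It was at 185, 70.2 and 73.8 CPM in untreated LYVE1+CX3CR1+, at 248, 192 and 179.8 in MHCII+CD11c- and at 410.3, 216 and 179 in MHCII+CD11c+. Replicate 1 was the highest library in each of the 3 subsets, and in LYVE1+CX3CR1+ it reached into the range of the others. The log2 fold change was -0.92 ± 0.30 against MHCII+CD11c- (adjusted p = 0.0448) and -1.30 ± 0.29 against MHCII+CD11c+ (adjusted p = 0.00153). The first did not pass without MHCII+CD11c- replicate 1 (adjusted p = 0.185), 2 (0.0731) or 3 (0.0645) or LYVE1+CX3CR1+ replicate 2 (0.235) or 3 (0.239), or with 1 surrogate variable (0.0764), whereas the second passed in all 14 alternatives.

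Clec4d, Clec4n and Clec12a did not pass in these comparisons. Clec12a, which encodes MICL, an inhibitory receptor for uric acid crystals, was the most even of the receptors, with group means from 81.2 to 110.2 CPM over all 6 groups. Its log2 fold change in untreated LYVE1+CX3CR1+ was -0.04 ± 0.23 against MHCII+CD11c- (95% interval -0.50 to 0.41) and 0.30 ± 0.23 against MHCII+CD11c+ (95% interval -0.15 to 0.74). Clec4n, the gene of Dectin-2, a receptor for fungal mannans, had 1 to 24 counts per untreated library and a wide interval (-2.28 to 0.59 against MHCII+CD11c-). Clec4d, the gene of MCL, a partner of Mincle, was at 10.1, 5.64 and 10.2 CPM in untreated LYVE1+CX3CR1+, at 11.6, 12.2 and 12.3 in MHCII+CD11c-, and at 10.51, 1.31 and 2.41 in MHCII+CD11c+. Replicate 1 raised its MHCII+CD11c+ mean. Without that library, Clec4d was lower in MHCII+CD11c+ than in MHCII+CD11c- (log2 fold change -2.59 ± 0.68, adjusted p = 0.0415). It was then also higher in LYVE1+CX3CR1+ than in MHCII+CD11c+ (2.12 ± 0.67, adjusted p = 0.0272).

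**Figure D3:**
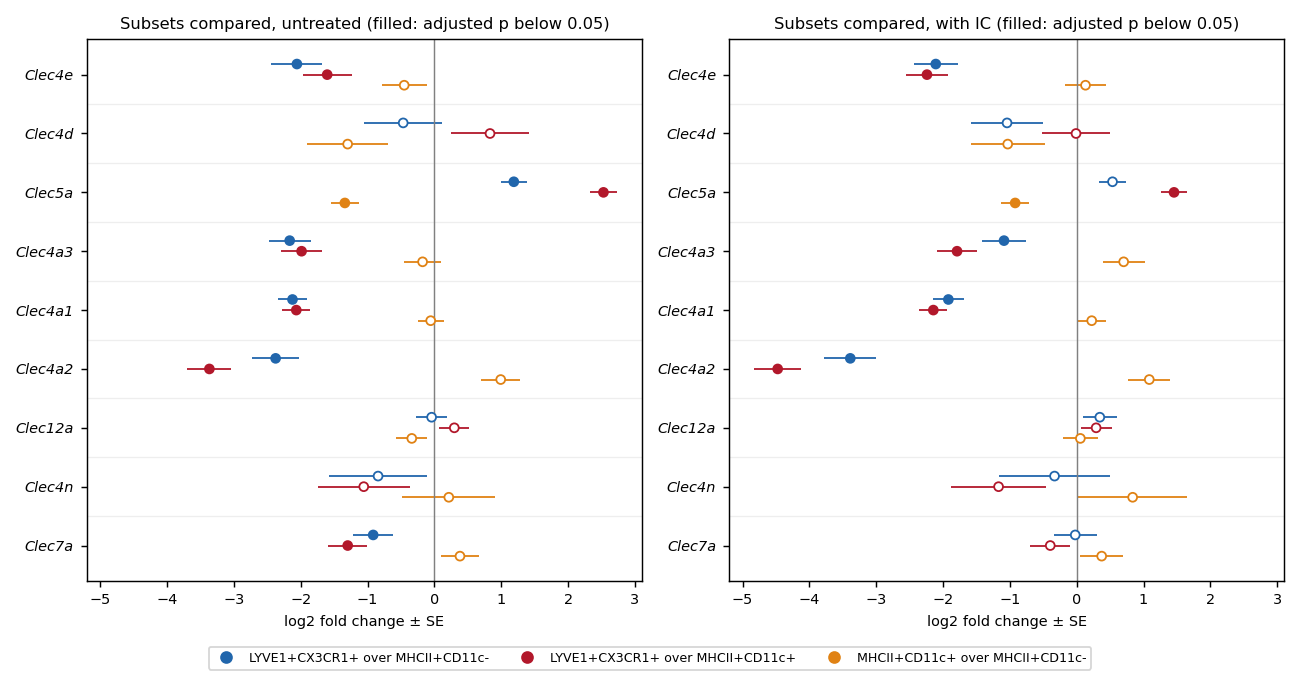
Log2 fold changes (points) with their SE (lines) of the 9 tested receptors between the 3 subsets, untreated (left) and with IC (right); filled points passed an adjusted p of 0.05. Clec4a1, Clec4a2, Clec4a3 and Clec4e lie left of 0 for LYVE1+CX3CR1+ against either MHCII+ subset in both panels, and Clec5a lies right of 0.

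Markers of other cells moved with these subset differences. All 11 tested neutrophil markers were lower in untreated LYVE1+CX3CR1+ than in MHCII+CD11c-, and 9 of the 11 were lower than in MHCII+CD11c+. The 14 neutrophil markers in the files summed to 18.9 to 24.8 CPM in untreated LYVE1+CX3CR1+, with 8 of them (among them S100a8 and Ngp) at 0, to 982 to 2282 in MHCII+CD11c- and to 130 to 864 in MHCII+CD11c+. Of the 10 monocyte markers, 7 were lower in LYVE1+CX3CR1+ than in either MHCII+ subset, while 1 (Vcan) was higher than in MHCII+CD11c- and 2 (Vcan and F13a1) than in MHCII+CD11c+. The 10 summed to 6917 to 8298 CPM in LYVE1+CX3CR1+, 5361 to 8463 in MHCII+CD11c- and 8310 to 10720 in MHCII+CD11c+. Ccr2 was at 23.2 to 31.2 CPM against 527 to 601 and 770.1 to 779, and Ly6c2 was at 0 in LYVE1+CX3CR1+. Other dendritic cell markers were also lower (6 and 7 of 9 tested), with sums of 73.8 to 84.9 CPM in LYVE1+CX3CR1+, 281 to 289 in MHCII+CD11c- and 484 to 711 in MHCII+CD11c+. Their part in the receptor differences was not tested.

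With IC, Clec4a1, Clec4a2, Clec4a3 and Clec4e were again lower in LYVE1+CX3CR1+ than in each MHCII+ subset. Clec7a did not pass with IC, at -0.02 ± 0.32 against MHCII+CD11c- (adjusted p = 0.982) and -0.40 ± 0.30 against MHCII+CD11c+ (adjusted p = 0.416), nor did Clec5a against MHCII+CD11c-. Between LYVE1+CX3CR1+ and MHCII+CD11c- 4 of the 9 receptors passed, all lower in LYVE1+CX3CR1+, beside 9.77% of all genes. Against MHCII+CD11c+ 5 passed, these 4 lower and Clec5a higher, beside 19.7% of all genes. The widest difference was that of Clec4a2, at 6.20, 2.11 and 8.16 CPM in LYVE1+CX3CR1+, 60.1, 86.6 and 42.1 in MHCII+CD11c- and 151, 119 and 108 in MHCII+CD11c+ with IC. Its log2 fold change in LYVE1+CX3CR1+ was -3.39 ± 0.39 (adjusted p = 1.08e-06) and -4.47 ± 0.35 (adjusted p = 5.94e-10), the latter a 22.2-fold lower level. Clec4a1 gave -1.92 ± 0.23 and -2.15 ± 0.21 (adjusted p = 1.55e-06 and 2.96e-08), and Clec4e -2.11 ± 0.33 and -2.24 ± 0.31 (adjusted p = 9.08e-05 and 6.52e-06).

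Clec4a3 was lower in LYVE1+CX3CR1+ with IC by a smaller margin against MHCII+CD11c- (log2 fold change -1.09 ± 0.32, adjusted p = 0.0320) than against MHCII+CD11c+ (-1.79 ± 0.29, adjusted p = 5.79e-05). The first did not pass without MHCII+CD11c- IC replicate 1 (adjusted p = 0.117) or 3 (0.0776) or LYVE1+CX3CR1+ IC replicate 1 (0.128) or 2 (0.128), with only the libraries compared (0.0983) or with 1 surrogate variable (-0.71, adjusted p = 0.469). Clec5a was at 154, 139.7 and 159 CPM in LYVE1+CX3CR1+, 91.5, 90.4 and 122 in MHCII+CD11c- and 52.4, 48.0 and 63.4 in MHCII+CD11c+ with IC, again in 3 steps without overlap. It was higher in LYVE1+CX3CR1+ than in MHCII+CD11c+ (1.46 ± 0.20, adjusted p = 3.5e-06). Against MHCII+CD11c- the value was 0.54 ± 0.20 (adjusted p = 0.0907), which passed without MHCII+CD11c- IC replicate 3 (0.77 ± 0.23, adjusted p = 0.0369).

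Between MHCII+CD11c+ and MHCII+CD11c- with IC 1 of the 9 receptors passed, beside 2.84% of all genes. Clec5a was lower in MHCII+CD11c+ (-0.92 ± 0.21, adjusted p = 0.0141), which did not pass without MHCII+CD11c+ IC replicate 1 (adjusted p = 0.0548) or 2 (0.0893) or MHCII+CD11c- IC replicate 3 (0.132). Clec4a2 stood at 1.09 ± 0.31 (adjusted p = 0.0618) and passed without MHCII+CD11c- IC replicate 2 (1.36 ± 0.33, adjusted p = 0.0223). Neutrophil markers differed between the subsets here too: all 11 tested were lower in LYVE1+CX3CR1+ with IC than in each MHCII+ subset, with sums of 19.2 to 200.8 CPM against 1702 to 5122 (MHCII+CD11c-) and 1266 to 2812 (MHCII+CD11c+). Their part was not tested.

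Of the tested receptors, Clec4e had the lowest adjusted p for IC in the mean over the subsets. It was at 18.6, 14.8 and 16.8 CPM in LYVE1+CX3CR1+ with IC, against 4.04, 6.90 and 8.08 untreated. In MHCII+CD11c- it was at 102, 48.9 and 65.1 CPM, against 32.6, 33.0 and 16.3, and in MHCII+CD11c+ at 60.2, 84.9 and 90.2, against 24.2, 17.1 and 17.8. Every IC library lay above every untreated library of its subset. The log2 fold change was 1.37 ± 0.37 in LYVE1+CX3CR1+ (adjusted p = 0.137), 1.42 ± 0.34 in MHCII+CD11c- (adjusted p = 0.0364) and 2.00 ± 0.31 in MHCII+CD11c+ (adjusted p = 0.00117), and the mean over the subsets was 1.59 ± 0.20 (adjusted p = 1.27e-05), a 3.02-fold rise that passed in all 25 alternatives.

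The MHCII+CD11c+ rise of Clec4e passed in all 12 alternatives, but that in MHCII+CD11c- passed in 6 of 13. It was lost without any of the untreated MHCII+CD11c- replicates 1 (adjusted p = 0.0528), 2 (0.0622) or 3 (0.136) and without IC replicate 1 (0.1402), with log2 fold changes from 1.118 to 1.57. In LYVE1+CX3CR1+ cells no receptor passed in edgeR, beside 0.464% of all genes. An unadjusted p under 0.05 was found there for 1 receptor, beside 919 of all 10550 tested genes. DESeq2 called 1 receptor, Clec4e (1.38 ± 0.40, adjusted p = 0.0270), beside 154 of all genes. In MHCII+CD11c- 1 receptor passed, Clec4e, beside 1.06% of all genes. In MHCII+CD11c+ 2 passed, Clec4e and Clec5a, both higher, beside 0.673% of all genes. In the mean over the 3 subsets 4 of the 9 passed, Clec4e, Clec4d and Clec5a higher and Clec7a lower, beside 6.21% of all genes, and the median of the 9 was 0.01, beside -0.01 over all genes.

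**Figure D4:**
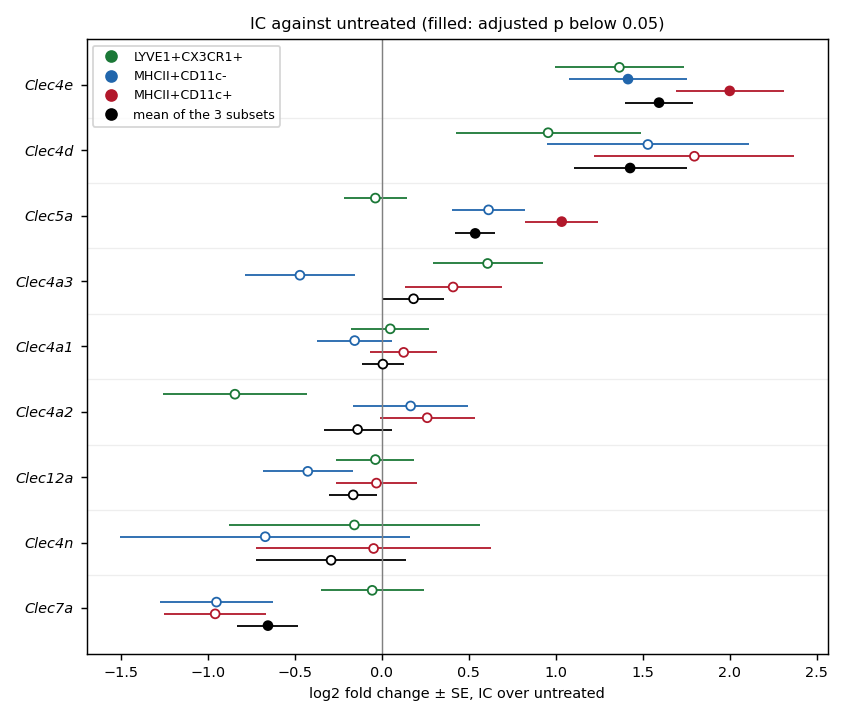
Log2 fold change of IC over untreated (points) with its SE (lines) for the 9 tested receptors in each subset and for the mean of the 3 subsets; filled points passed an adjusted p of 0.05. Clec4e and Clec4d lie right of 0 in every subset, with means of 1.59 and 1.43, and Clec7a lies left of 0 in the MHCII+ subsets.

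Clec4d, whose protein pairs with Mincle, was higher with IC in the mean over the subsets. It was at 14.7, 9.49 and 26.4 CPM in LYVE1+CX3CR1+ with IC (5.64 to 10.2 untreated), at 28.8, 52.7 and 28.0 in MHCII+CD11c- (11.6 to 12.3 untreated), and at 9.26, 21.2 and 18.9 in MHCII+CD11c+ (1.31 to 10.51 untreated). The groups were apart in MHCII+CD11c- and overlapped in the other subsets. The mean log2 fold change was 1.43 ± 0.33 (adjusted p = 0.00772, in all 25 alternatives), with 0.96 ± 0.53, 1.53 ± 0.58 and 1.80 ± 0.57 in the single subsets (adjusted p = 0.665, 0.196 and 0.194), where counts per library were 2 to 55. The MHCII+CD11c+ change was smaller with untreated replicate 1 included. Without that library it was 3.09 ± 0.66 (adjusted p = 0.0215).

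Clec5a rose with IC in MHCII+CD11c+ and in the mean over the subsets. It went from 26.3, 21.7 and 31.8 to 52.4, 48.0 and 63.4 CPM in MHCII+CD11c+, without overlap, a log2 fold change of 1.03 ± 0.21 (adjusted p = 0.0152). This did not pass without untreated replicate 1 (adjusted p = 0.0529), untreated replicate 2 (0.124) or IC replicate 3 (0.171). In MHCII+CD11c- it stood at 0.61 ± 0.21 (adjusted p = 0.155), again without overlap, and in LYVE1+CX3CR1+ at -0.04 ± 0.18 (adjusted p = 0.990, 95% interval -0.39 to 0.32). The mean over the subsets was 0.54 ± 0.12 (adjusted p = 0.00549), which passed in all 26 alternatives.

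Clec7a was the receptor that fell in the mean over the subsets, by 0.66 on the log2 scale (SE 0.18, adjusted p = 0.0229). It was at 99.4, 86.6 and 124 CPM in MHCII+CD11c- with IC and at 143, 127 and 144 in MHCII+CD11c+, and in both subsets every IC library lay under every untreated one (179.8 to 248 and 179 to 410.3 CPM). In LYVE1+CX3CR1+ the IC libraries, at 118, 99.1 and 97.96 CPM, lay inside the untreated range of 70.2 to 185. In MHCII+CD11c-, MHCII+CD11c+ and LYVE1+CX3CR1+ alone it did not pass (-0.95 ± 0.32, -0.96 ± 0.29 and -0.06 ± 0.30, adjusted p = 0.149, 0.166 and 0.992). Without a filter on low counts it passed in MHCII+CD11c- (adjusted p = 0.00492) and in MHCII+CD11c+ (0.00105). The mean did not pass without untreated replicate 1 of MHCII+CD11c+ (adjusted p = 0.0559) or of LYVE1+CX3CR1+ (0.0729), the libraries with the highest Clec7a of their groups, and log2 fold changes were then -0.51 and -0.46. It also did not pass with 1 surrogate variable (-0.65, adjusted p = 0.0571) or without MHCII+CD11c- IC replicates 1 and 2 together (-0.57, 0.106).

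The remaining receptors did not pass with IC. For Clec4a1, which had 33 counts or more in every library, the mean log2 fold change over the subsets was 0.01 ± 0.12 (95% interval -0.23 to 0.24). For Clec12a it was -0.16 ± 0.14 (95% interval -0.44 to 0.11), for Clec4a3 0.18 ± 0.18 (-0.16 to 0.53), for Clec4a2 -0.14 ± 0.20 (-0.52 to 0.24) and for Clec4n -0.29 ± 0.43 (-1.14 to 0.56). The intervals of these means for Clec4a1, Clec12a, Clec4a2 and Clec4a3 leave out a log2 change of 1 in either direction. That of Clec4n, with 0 to 24 counts per library, does not. In single subsets the signs of Clec4a2 and Clec4a3 differed, and some intervals reach a change of 1. Clec4a2 was at -0.84 in LYVE1+CX3CR1+ (95% interval -1.65 to -0.04), 0.17 in MHCII+CD11c- (-0.48 to 0.81) and 0.26 in MHCII+CD11c+ (-0.28 to 0.80). Clec4a3 was at 0.61 (-0.01 to 1.23), -0.47 (-1.09 to 0.15) and 0.41 (-0.14 to 0.96) in the same order.

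Whether the response to IC differed between subsets was tested directly. Of the 9 receptors 0 passed in each of the 3 comparisons of responses, where 0%, 0.00948% and 0.00948% of all genes passed in edgeR's test (LYVE1+CX3CR1+ against MHCII+CD11c-, LYVE1+CX3CR1+ against MHCII+CD11c+, and MHCII+CD11c+ against MHCII+CD11c-). An unadjusted p under 0.05 was found for 2, 3 and 1 of the 9, beside 688, 474 and 642 of all 10550 tested genes. DESeq2 called 0 receptors in each, beside 12, 11 and 1 of all genes. The smallest unadjusted p was that of Clec5a, whose response in LYVE1+CX3CR1+ was smaller than in MHCII+CD11c+ by 1.07 ± 0.28 on the log2 scale (adjusted p = 0.645, 95% interval of the difference -1.62 to -0.53). For Clec4e the difference of the response of MHCII+CD11c+ minus that of MHCII+CD11c- was 0.58 ± 0.46 (95% interval -0.31 to 1.48), and that of LYVE1+CX3CR1+ minus MHCII+CD11c+ was -0.63 ± 0.50 (-1.61 to 0.34). A larger rise of Clec4e in any subset was therefore not shown.

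Markers of neutrophils and monocytes moved with the response to IC as well. Over the subsets 7 of 11 tested neutrophil markers and 6 of 10 monocyte markers were higher with IC, among them S100a8 (3.62 ± 0.77, adjusted p = 0.00558), S100a9 (3.02 ± 0.62, adjusted p = 0.00344) and Ly6c2 (2.52 ± 0.68, adjusted p = 0.0253). S100a8 and Ly6c2 were not detected in untreated LYVE1+CX3CR1+, so the size of their mean changes depends on the prior count. The 14 neutrophil markers summed to 1266 to 2812 CPM in MHCII+CD11c+ with IC against 130 to 864 untreated, and 4 of the 11 tested passed there. They summed to 1702 to 5122 against 982 to 2282 CPM in MHCII+CD11c-. In LYVE1+CX3CR1+ with IC the sums were 19.2, 200.8 and 29.3 CPM in replicates 1 to 3, against 18.9 to 24.8 untreated, and Clec4e was at 18.6, 14.8 and 16.8 CPM in the same 3 libraries. Clec4e, Clec4d and Clec5a are known to be expressed by neutrophils and monocytes too. The 10 monocyte markers summed to 9077 to 10425 CPM in LYVE1+CX3CR1+ with IC against 6917 to 8298 untreated, and overlapped between IC and untreated in the MHCII+ subsets. Of these 10, only 4, 5 and 6 had a count in untreated LYVE1+CX3CR1+ replicates 1 to 3, and 6, 8 and 9 with IC. Ly6c2, Chil3 and Hp were at 0 in untreated LYVE1+CX3CR1+, so the sum there came from the other markers. Ccr2 was at 468 to 663 CPM in MHCII+CD11c+ with IC against 770.1 to 779 untreated. Of the 9 tested markers of other dendritic cells 3 were lower with IC in the mean over the subsets. Mast cell markers summed to 118 to 486 CPM in MHCII+CD11c- with IC against 6.11 to 214 untreated. The part of these markers in the receptor changes was not tested.

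**Figure D5:**
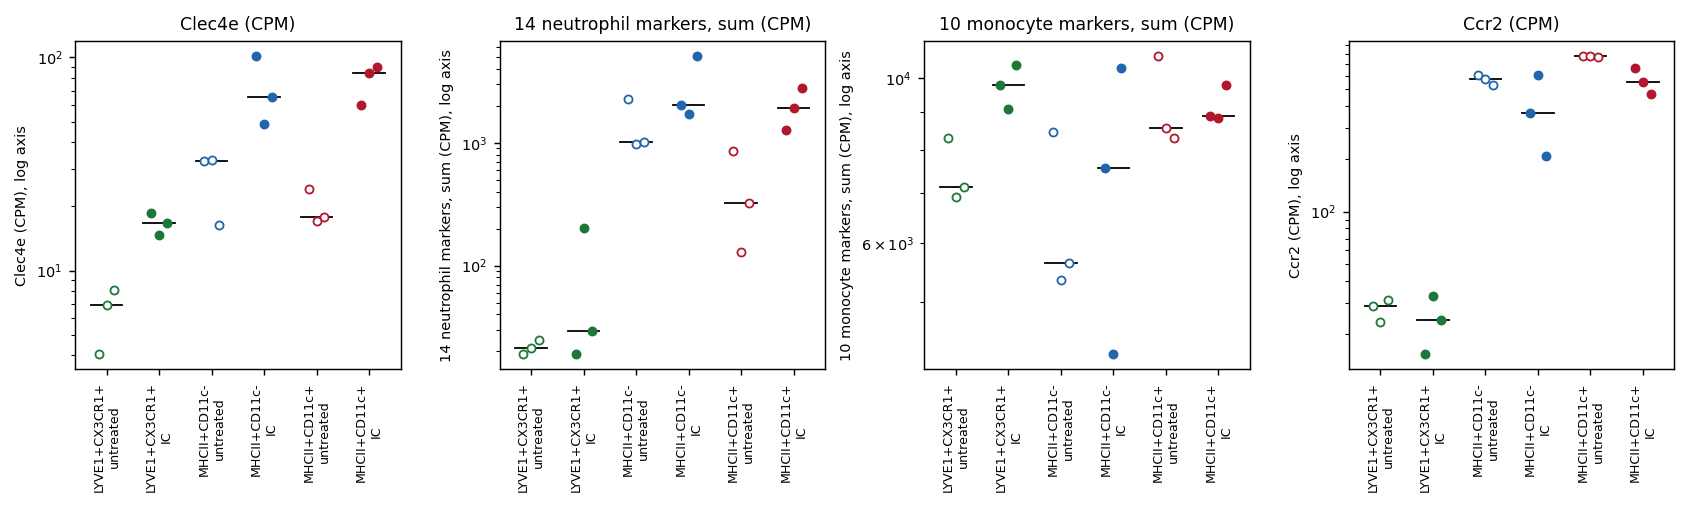
Clec4e, the sum of 14 neutrophil markers, the sum of 10 monocyte markers and Ccr2, one of these 10, in each library (points, CPM on log axes) with group medians (lines), for untreated (open) and IC (filled) libraries. In LYVE1+CX3CR1+ libraries with IC, Clec4e is at 14.8 to 18.6 CPM, against 4.04 to 8.08 untreated. The neutrophil sums there are 19.2, 200.8 and 29.3 CPM in replicates 1 to 3, against 18.9 to 24.8 untreated. Ccr2 is at 468 to 663 CPM with IC in MHCII+CD11c+ against 770.1 to 779 untreated, while 6 of the 10 monocyte markers were called higher in the mean over the subsets.

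Clec9a encodes DNGR-1, a receptor of type 1 conventional dendritic cells that binds the actin of dead cells. It had 19 counts in all, in 5 of the 18 libraries. Untreated MHCII+CD11c+ replicates 1 to 3 held 1, 4 and 12 of them, and 1 count each was found in replicate 3 of untreated MHCII+CD11c- and of untreated LYVE1+CX3CR1+. All 9 IC libraries were at 0. In MHCII+CD11c+ the pooled level was 3.09 CPM untreated, and 0 counts with IC allow up to 3 counts over the group, or 0.842 CPM. Untreated replicate 1, at 0.525 CPM, lay under that value. With the untreated level taken as exact, the pooled level was at least 3.67-fold lower, by counting error of the IC libraries alone. Without untreated replicate 3, which held most of the counts, this limit was 1.73-fold, and without replicate 1 or 2 it was 5.28-fold or 3.88-fold. The exact permutation test over libraries, two-sided, gave p = 0.1, the smallest that 3 against 3 allows. Xcr1, which marks the same dendritic cells, had 6 counts in untreated MHCII+CD11c+ and 3 with IC, where the libraries together held fewer counts. The 10 markers of type 1 conventional dendritic cells summed to 536 to 616 CPM in untreated MHCII+CD11c+. With IC they summed to 433 to 557 CPM, which overlaps. Clec9a overlaps Clec1b on the same strand in the GENCODE annotation, and 4.02% of its 50-base words are shared with it. Clec1b had 5 counts in untreated MHCII+CD11c+ replicate 1, which held the fewest Clec9a counts of the 3. Whether reads of Clec1b enter the Clec9a counts was not tested.

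The genes through which these receptors signal were taken as a list. Of 43 adaptors, kinases, phosphatases and CARD9 pathway genes 41 were tested. In untreated LYVE1+CX3CR1+ 5 were lower than in MHCII+CD11c- and 0 higher (median log2 fold change -0.17), beside 11.4% of all genes, with Nlrp3, Vav3 and Irf1 among them. The Vav3 call ended without any one of 5 libraries (adjusted p from 0.0824 to 0.246). Against MHCII+CD11c+ 11 were lower and 4 higher (median -0.19), beside 21.8% of all genes. Malt1, the protease of the CARD9 complex, was lower than in MHCII+CD11c+ (-1.63 ± 0.33, adjusted p = 0.000542), and Card9 itself was higher (0.97 ± 0.30, adjusted p = 0.0214). Card9 was at 37.7, 55.2 and 47.4 CPM in LYVE1+CX3CR1+ against 27.3, 20.4 and 23.6 in MHCII+CD11c+, without overlap. The Card9 difference did not pass without replicate 2 (adjusted p = 0.089) or 3 (0.0681) of MHCII+CD11c+ or replicate 2 (0.0981) or 3 (0.0574) of LYVE1+CX3CR1+.

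With IC the mean over the subsets was higher for 5 of the 41 and lower for 2, beside 6.21% of all genes. Fcer1g, the FcRγ chain used by Mincle, MCL and Dectin-2, was higher by 0.40 ± 0.09 (adjusted p = 0.00429). In each subset its IC libraries lay above all untreated ones. They were at 383, 390.1 and 368 CPM against 288, 293 and 282 in LYVE1+CX3CR1+. In MHCII+CD11c- they were at 363, 289.9 and 338 against 243, 288.5 and 252. In MHCII+CD11c+ they were at 296, 324 and 308 against 254, 197 and 221. Irf1, an interferon-induced transcription factor, was lower (-0.57 ± 0.11, adjusted p = 0.00137).

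Among 23 cytokines and enzymes that these receptors are known to induce, 16 were tested. With IC, 3 were higher and 1 lower in the mean over the subsets, beside 6.21% of all genes. Il1b, the gene of interleukin-1 beta, was higher by 1.33 ± 0.20 (adjusted p = 0.000116), Cxcl1 by 1.13 ± 0.27 (adjusted p = 0.0116) and Cxcl2 by 0.69 ± 0.12 (adjusted p = 0.000849), both neutrophil-attracting chemokines, and Socs3, a feedback inhibitor of cytokine signals, was lower (-0.42 ± 0.11, adjusted p = 0.0271). Leaving out any one of 6 libraries ended the Socs3 call (adjusted p from 0.0552 to 0.0695). Il1b followed the same order of untreated subsets as Clec4a2, at 23.6, 15.04 and 42.0 CPM in LYVE1+CX3CR1+, 159, 180 and 105 in MHCII+CD11c- and 270.0, 335 and 401 in MHCII+CD11c+. In untreated cells 6 of the 16 were lower in LYVE1+CX3CR1+ than in MHCII+CD11c- and 0 higher, beside 11.4% of all genes, and 5 were lower and 1 (Tnf) higher than in MHCII+CD11c+, beside 21.8%. The Tnf difference (0.81 ± 0.25, adjusted p = 0.0196) did not pass without MHCII+CD11c+ replicate 1 (0.132) or LYVE1+CX3CR1+ replicate 3 (0.12).

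Other C-type lectins of the cell surface were compared as a list of 43, of which 25 were tested. In untreated LYVE1+CX3CR1+ 18 were lower and 2 higher than in MHCII+CD11c-, with a median log2 fold change of -3.70, beside 11.4% of all genes called. Against MHCII+CD11c+ 19 were lower and 2 higher, with a median of -4.08, beside 21.8% of all genes. Fold changes of genes at or near 0 counts in LYVE1+CX3CR1+ depend on the prior count, and their medians with them. Colec12, a scavenger receptor, and Olr1, the receptor for oxidized LDL, were the ones that were higher in LYVE1+CX3CR1+ (1.36 ± 0.29 and 1.31 ± 0.34 against MHCII+CD11c-, adjusted p = 0.00238 and 0.00953), as Clec5a was. The Olr1 difference did not pass without MHCII+CD11c- replicate 1 (adjusted p = 0.0583). Clec4b1, which lies in the Dectin-2 cluster beside the receptors described here, was at 54.1, 57.9 and 45.3 CPM in untreated MHCII+CD11c+, at 24.4, 12.2 and 8.17 in MHCII+CD11c- and at 0, 0.627 and 0 in LYVE1+CX3CR1+.

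With IC, 2 of these 25 were higher and 3 lower in the mean over the subsets, beside 6.21% of all genes. Olr1 was higher (0.74 ± 0.19, adjusted p = 0.0195), which did not pass without LYVE1+CX3CR1+ IC replicate 1 (0.0623) or MHCII+CD11c+ IC replicate 2 (0.0617). Mrc1, the mannose receptor, was higher as well (0.36 ± 0.10, adjusted p = 0.0238), a call that leaving out any one of 7 libraries ended. Mgl2, a galactose-binding lectin, was lower (-0.85 ± 0.16, adjusted p = 0.00169), as was Cd209f (-0.63 ± 0.17, adjusted p = 0.0205), though not without replicate 2 of untreated MHCII+CD11c- (0.0503) or LYVE1+CX3CR1+ (0.106) or replicate 1 of LYVE1+CX3CR1+ with IC (0.0595). Cd209a, a DC-SIGN homologue that also stands among the dendritic cell markers, was lower in the mean (-2.02 ± 0.60, adjusted p = 0.0463), a call that leaving out any one of 12 libraries ended (adjusted p up to 0.267). In MHCII+CD11c+ alone Cd209a went from 173, 269 and 277 to 86.4, 62.9 and 107 CPM (-1.48 ± 0.28, adjusted p = 0.0136), in the libraries in which Clec4e rose. This did not pass without untreated replicate 2 (adjusted p = 0.0989) or 3 (0.0885) or IC replicate 2 (0.092).

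The genes most like each receptor over the 18 libraries were found by Pearson correlation of log2 CPM among the 10550 tested genes, given as a description, since libraries share subsets and treatments. Clec4e was most like Trem1, which encodes an activating DAP12-coupled receptor of myeloid cells (r = 0.95), and Sdc4 (0.93). Trem1 was at 0, 0 and 2.69 CPM in untreated and 10.2, 4.74 and 3.36 in IC-treated LYVE1+CX3CR1+, and at 14.2, 10.52 and 11.6 against 30.9, 70.0 and 97.5 in MHCII+CD11c+. Clec5a was most like Vcan (0.98) and Mef2a (0.98). Clec4a1 was most like H2-Aa and H2-Eb1 (0.98 for each), Clec4a2 like Cytip (0.97) and H2-DMa (0.96), and Clec4a3 like Mir5107 and Cd74 (0.93 for each), where H2-Aa and H2-Eb1 encode MHCII, the protein used in the sort. Clec7a was most like Thap6 and Hist1h2be (0.81 for each), Clec12a like Txndc15 (0.75) and Myo1e (0.74), Clec4d like Phb (0.79), and Clec4n like Ccdc174 (0.86) and Recql5 (0.84).

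Among the receptors themselves, 3 of the 36 pairs had r over 0.8, all within Clec4a1, Clec4a2 and Clec4a3 (0.85 to 0.94), and 4 pairs had r under -0.7, each of them Clec5a with Clec4a2 (-0.82), Clec4a1 (-0.77), Clec4a3 (-0.72) or Clec7a (-0.70). Clec4d and Clec4e, neighbours in the genome, had r = 0.52. These values describe the same 18 libraries as the tests.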

How the data were processed

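RNA of sorted synovial macrophages was made into libraries with a stranded total RNA pico kit and sequenced paired-end. The authors trimmed the reads, aligned them to mm10 with HISAT2 and counted them per gene with featureCounts, and the deposited values are raw counts per gene symbol. The annotation, strand setting and handling of multimapping and duplicate reads are not given in the sources used here, and antisense or shared reads may therefore enter a gene's count. Counts were used as deposited, at 245903 to 2172358 per library. Replicates differed by more than sampling noise (chi-square per gene of at least 3.42). Genes passing filterByExpr of edgeR 4.0.16 (minimum count 10, minimum total 15) were scaled by TMM and tested with the quasi-likelihood test over 18 libraries in 6 groups, with Benjamini-Hochberg adjustment over 10550 genes and a threshold of 0.05. SE is the log2 fold change divided by the square root of F, and intervals are normal 95% intervals. DESeq2 1.42.0, sva 3.50.0 (1 surrogate variable), other filters, scalings, sample sets and a replicate block were alternatives, all run in R 4.3.3. Only the main edgeR test and DESeq2 were also run on simulated data, for IC in MHCII+CD11c+. P-values measure the spread between pooled libraries. Each alternative leaving out 1 library assumes that the remaining ones vary like the other groups.

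The 10 receptors, the gene lists and the markers were chosen with earlier results of these data known. All receptors were described in every comparison, along with up to 3 genes with the largest and 3 with the smallest log2 fold change among those that passed, for each of 3 gene lists, and the 2 genes most like each receptor (log2 CPM with a prior count of 2). Exon lengths were the union of all annotated exons of a gene in GENCODE, over all its transcripts. Positions and promoter windows were taken from RefSeq on GRCm38.p6, and shared words were 50 bases of GENCODE transcript sequence. A table combining the same counts held identical values and was not used. Results of some genes in these lists are not reported here.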

Additional observations from a re-analysis of the deposited data

How the results depend on the processing

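Of 1870 receptor values under alternatives, 1719 kept their direction and side of the threshold, 31 no longer passed, 17 newly passed, 103 were uncalled values that changed sign, and 0 called values reversed. Counts of receptors that passed moved as follows. Between untreated MHCII+CD11c+ and MHCII+CD11c-, 2 passed in place of 1 with DESeq2, without a filter, with only the libraries compared and with 1 surrogate variable, and 1 to 2 with single libraries left out. With IC in that comparison, 2 passed with DESeq2, without a filter, with 1 surrogate variable and without MHCII+CD11c- IC replicates 1 and 2 together, 0 with only the libraries compared, and 0 to 2 with single libraries left out. For IC in LYVE1+CX3CR1+ DESeq2 called 1. For IC in MHCII+CD11c- 2 passed without a filter, and 0 with the stricter filter (each library at 10 counts or more), with only the libraries compared, with 1 surrogate variable and without both small IC libraries, and 0 to 1 with single libraries left out. For IC in MHCII+CD11c+ 3 passed without a filter, 1 with the stricter filter and 1 to 2 with single libraries left out. With the stricter filter, where fewer receptors could be tested, 2 passed in the mean response and 3 between LYVE1+CX3CR1+ and MHCII+CD11c+ with IC. Smaller moves were 5 in place of 6 with 1 surrogate variable and 4 with the stricter filter for untreated LYVE1+CX3CR1+ against MHCII+CD11c-, 4 in place of 6 with the stricter filter against MHCII+CD11c+, 3 in place of 4 with 1 surrogate variable, the stricter filter, only the libraries compared or the 2-library removal for LYVE1+CX3CR1+ against MHCII+CD11c- with IC, and 3 in place of 4 with 1 surrogate variable or the 2-library removal in the mean response. With single libraries left out these were 5 to 6, 6 to 7, 3 to 4 and 3 to 4. Otherwise the cause was not tested. The 2-library removal and the Clec9a limits without single libraries were chosen after seeing the data.

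Over all genes, the counts of calls ranged from 750 to 1434 (LYVE1+CX3CR1+ against MHCII+CD11c-) and 1291 to 2839 (against MHCII+CD11c+) and from 187 to 581 (MHCII+CD11c+ against MHCII+CD11c-) untreated, from 435 to 1258, 1182 to 2413 and 100 to 472 with IC, from 13 to 272, 19 to 337 and 14 to 250 for IC in LYVE1+CX3CR1+, MHCII+CD11c- and MHCII+CD11c+, and from 0 to 20, 0 to 27 and 0 to 29 for the differences of responses. Same-numbered libraries of different subsets within a treatment deviated together only weakly. Their median r was 0.036 (-0.0455 to 0.132) over 18 pairs, 1 of them over 0.1. For same-numbered IC and untreated libraries of a subset the median was 0.0063. The labels do not say what the replicate numbers mark. With the replicate number as a block no receptor call changed, for example 1 receptor passed for IC in MHCII+CD11c- (Clec4e, adjusted p = 0.0465 with the block in edgeR) and 4 in the mean response. A block within treatment could not be fitted for IC against untreated. Another scaling moved the median of all genes by at most 0.0215 (log2), and all 60 group levels without TMM scaling lay within 1 SD. Depth limits Clec4n, Clec4d and Clec9a most.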
